A study of Mus musculus with 4 samples.

Results

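The genes described here are the mouse zinc finger genes numbered in the Zfp900 to Zfp999 range. They were chosen by symbol from the Ensembl gene rows of an estimated-count table, with the condition that the estimated count was above 5 in at least 2 of the 4 libraries. Of 64 such symbols in the table, 63 met the condition, from Zfp930 to Zfp995. The remaining gene, Zfp957, had a count of 0 in all 4 libraries. There 3 counts, the limit that a count of 0 allows, correspond to 0.187 to 0.258 CPM (counts scaled to library size). For this limit the size was the plain library total. For the CPM of genes and gene lists below, the total was adjusted by the TMM scaling of edgeR. Those CPM therefore differ somewhat from shares of the plain library total, which are given in percent. By the same condition 17078 of 43496 Ensembl genes in the table were present, among them 288 other numbered Zfp genes. The choice used the level of a gene but not its difference between the groups.

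The line was E14, pluripotent embryonic stem cells of the mouse with the strain label 12910la, grown on gelatin in serum with leukaemia inhibitory factor (LIF). One group had received a random shRNA and is labelled wild type. The other had received an shRNA against MERVL, an endogenous retrovirus expressed at the 2-cell stage and in a small fraction of embryonic stem cells, and labelled MuERVL in the protocol. In both groups the vector was 1000 ng of pSuper puro plasmid, and puromycin at 1 µg/ml followed 24 h after transfection and was kept for 4 days, so the RNA came from selected pools of transfected cells. Each group had 2 libraries. Nothing in the labels shows that the 2 came from different cultures, and the spread behind each p-value may therefore be technical.

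Most of these genes encode KRAB zinc finger proteins. Such a protein binds DNA through an array of C2H2 zinc fingers and recruits the corepressor TRIM28 through its KRAB domain, and TRIM28 in turn brings the histone methyltransferase SETDB1 and heterochromatin proteins. In embryonic stem cells this pathway is known for silencing endogenous retroviruses. The family has expanded in rodents by duplication, and many members lie in clusters of near-identical genes.

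In GENCODE M21, 62 of the 63 genes are protein coding and Zfp939 is a transcribed unprocessed pseudogene. A KRAB box pattern was found in the translated coding sequence of 57, and 54 had the pattern together with at least 1 zinc finger in the same protein. The median number of C2H2 fingers over the coding genes was 11, from 2 among those with a match up to 21 in Zfp974. No finger match was found in Zfp935 or Zfp972, and Zfp939 has no coding transcript to search. The 5 coding genes without the KRAB pattern were Zfp947, Zfp948, Zfp952, Zfp956 and Zfp972.

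By position, 43 genes fell into 5 clusters, defined as at least 3 genes with each start within 1000000 bases of the next, and 20 lay outside. On GRCm38 (mm10) the largest cluster held 16 genes at chr4:145510759-147848366. A cluster of 10 was at chr2:175372436-178078476 and another of 10 at chr17:21567008-22867134. The last pair held 4 genes at chr7:42579783-43192109 and 3 at chr8:69209038-69749970.

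Promoter sequences show how alike the copies are at their starts. RefSeq windows on GRCm38.p6, from 250 bases before the annotated start to 50 after it, were found for 53 of the 63 genes. The most frequent 12-base run, CTGCCAGTCAGA, was in 16 of the 53, with its first base 9 to 89 bases before the start. Of these 16 genes, 9 lie on chromosome 2, 4 on chromosome 7, 2 on chromosome 5 and 1 on chromosome 19. Over all 32851 promoter windows, searched on both strands, 65 held it, which is 0.198%. Among the 10 genes of the chromosome 4 cluster with a promoter, the most frequent run was GAAGCTAATTAA, held by 8 of them 111 to 161 bases before the start and by 13 windows, or 0.0396%, of all. These runs were picked as the most frequent in the same promoters, so their frequency is a description of sequence likeness and no binding site is implied. The 8 promoters below show the first run on 4 chromosomes, the second run in 3 genes of the chromosome 4 cluster, and the promoter of Zfp961, which holds neither run. Capitals mark the run, and the position is that of the window. Where a gene with a run had more than 1 window, the first window holding the run is printed.

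Zfp968 promoter, chr2:175372186-175372485, plus strand: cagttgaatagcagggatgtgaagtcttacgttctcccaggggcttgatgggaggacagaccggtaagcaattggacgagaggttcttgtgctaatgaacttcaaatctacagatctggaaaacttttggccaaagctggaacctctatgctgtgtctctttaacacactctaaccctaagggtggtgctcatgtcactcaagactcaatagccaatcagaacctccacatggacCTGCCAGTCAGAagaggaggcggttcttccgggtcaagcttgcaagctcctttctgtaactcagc
Zfp975 promoter, chr7:42692669-42692968, minus strand: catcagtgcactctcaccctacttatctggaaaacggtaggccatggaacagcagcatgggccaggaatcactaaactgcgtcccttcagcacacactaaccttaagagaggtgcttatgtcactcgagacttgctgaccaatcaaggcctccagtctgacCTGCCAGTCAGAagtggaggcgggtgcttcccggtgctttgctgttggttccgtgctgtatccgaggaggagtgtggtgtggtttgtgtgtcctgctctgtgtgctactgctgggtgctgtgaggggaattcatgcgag
Zfp932 promoter, chr5:109996260-109996559, plus strand: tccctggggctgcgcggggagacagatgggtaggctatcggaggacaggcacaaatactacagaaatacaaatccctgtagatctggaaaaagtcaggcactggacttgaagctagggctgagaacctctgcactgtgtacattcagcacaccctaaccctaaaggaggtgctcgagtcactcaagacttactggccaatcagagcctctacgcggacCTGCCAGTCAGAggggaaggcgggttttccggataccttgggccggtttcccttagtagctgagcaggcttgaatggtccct
Zfp950 promoter, chr19:61140791-61141090, minus strand: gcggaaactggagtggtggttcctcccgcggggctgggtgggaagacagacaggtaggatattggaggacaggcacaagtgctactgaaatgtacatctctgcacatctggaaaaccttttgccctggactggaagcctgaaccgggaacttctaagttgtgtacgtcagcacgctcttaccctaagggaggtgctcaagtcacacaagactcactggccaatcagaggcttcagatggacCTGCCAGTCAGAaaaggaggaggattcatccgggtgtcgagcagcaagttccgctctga
Zfp980 promoter, chr4:145670447-145670746, plus strand: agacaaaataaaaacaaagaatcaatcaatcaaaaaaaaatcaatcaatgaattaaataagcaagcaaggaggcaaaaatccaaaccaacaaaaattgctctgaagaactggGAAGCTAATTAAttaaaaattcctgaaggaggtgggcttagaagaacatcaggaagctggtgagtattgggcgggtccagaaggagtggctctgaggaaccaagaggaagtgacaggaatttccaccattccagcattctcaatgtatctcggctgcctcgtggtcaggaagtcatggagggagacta
Zfp981 promoter, chr4:146514670-146514969, plus strand: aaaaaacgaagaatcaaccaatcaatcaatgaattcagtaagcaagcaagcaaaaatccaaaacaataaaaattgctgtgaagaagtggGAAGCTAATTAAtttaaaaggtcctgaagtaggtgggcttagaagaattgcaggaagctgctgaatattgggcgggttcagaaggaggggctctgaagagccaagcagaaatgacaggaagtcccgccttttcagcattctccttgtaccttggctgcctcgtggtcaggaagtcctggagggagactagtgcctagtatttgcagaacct
Zfp985 promoter, chr4:147553027-147553326, plus strand: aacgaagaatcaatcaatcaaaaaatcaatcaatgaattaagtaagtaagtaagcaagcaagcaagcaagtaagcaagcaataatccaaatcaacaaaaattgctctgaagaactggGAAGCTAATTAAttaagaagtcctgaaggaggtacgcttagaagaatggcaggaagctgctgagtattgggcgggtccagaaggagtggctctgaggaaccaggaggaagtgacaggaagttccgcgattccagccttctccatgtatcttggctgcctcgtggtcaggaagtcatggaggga
Zfp961 promoter, chr8:71950816-71951115, plus strand: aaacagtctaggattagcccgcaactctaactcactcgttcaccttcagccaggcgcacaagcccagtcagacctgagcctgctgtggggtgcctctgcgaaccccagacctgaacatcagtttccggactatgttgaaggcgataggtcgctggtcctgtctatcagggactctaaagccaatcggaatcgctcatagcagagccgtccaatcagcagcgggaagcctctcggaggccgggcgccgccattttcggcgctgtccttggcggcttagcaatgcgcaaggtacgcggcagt

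The Zfp961 window held 21 CpG dinucleotides against 3 to 9 in the other 7 printed windows, which were picked for holding a run. The median was 8 over the 61 windows of these genes and 7 over all promoter windows. Genes with the first run ranged in log2 fold change (MERVL shRNA over random shRNA) from -0.92 to 0.38, with 8 of 16 positive. Those with the second run ranged from -0.58 to 0.33, with 3 of 8 positive. Both MERVL shRNA libraries were above both random shRNA libraries in 1 of the 16 and below both in 2. For the 8 these counts were 0 and 3, the 3 being Zfp980, Zfp981 and Zfp985, printed above. Over all genes the shares were 23% above and 21.9% below. A link between a run and the knockdown was not tested.

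The likeness extends into the transcripts and limits what the counts can tell. Of the 63 genes, 28 shared over 10% of the 100-base windows of their longest transcript with another gene, and 13 shared over 50%. In Zfp965, Zfp967 and Zfp969, all on chromosome 2, every window was shared. Estimated counts that were not whole numbers in all 4 libraries, as arise when a read is divided among copies, were seen in 27 genes, 22 of which shared over 10%. Values for such genes are uncertain, since reads could be divided among copies in other ways.

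Library totals were 11628887 to 16067854 estimated counts. Listed MERVL copies took 0.472% of the counts in random shRNA replicate 1 and 0.147% in its replicate 2. They took 0.115% in the first MERVL shRNA library and 0.0555% in the other, so the targeted element was lower in both knockdown libraries, and the random shRNA replicates differed from each other by more than random shRNA replicate 2 differed from MERVL shRNA replicate 1. All 10 embryonic stem cell markers were fitted. They summed to 7878 and 8931 CPM in random shRNA 1 and 2, and to 9241 and 9969 CPM in MERVL shRNA 1 and 2. Both MERVL shRNA libraries were above both random shRNA libraries in 7 of the 10, against 23% of all genes. In 1 of the 10 (Utf1) both were below, against 21.9%. The median log2 fold change of the 10 was 0.20, against 0.00 over all genes. The 5 markers of the 2-cell-like state summed to 808.6, 206.9, 168.5 and 94.1 CPM in random shRNA 1, random shRNA 2, MERVL shRNA 1 and MERVL shRNA 2, the order used for all values below. Of fibroblast markers, Col3a1 and Postn were at 0 in every library and Col1a2 was too low to be fitted. Thy1 was 23.1, 28.8, 8.67 and 6.88 CPM, and Col1a1 was 1.98, 1.26, 0.629 and 0.851 CPM, with both MERVL shRNA libraries lower in each. Primitive endoderm markers summed to 13.2 to 18.9 CPM, and Cdx2, Elf5 and Hand1 of the trophectoderm list were too low to be fitted. The other trophectoderm markers were Eomes, at 9.31, 14.6, 6.66 and 8.16 CPM with both MERVL shRNA libraries lower, and Krt7, at 0.128, 0.839, 0.566 and 0.780 CPM with the groups overlapping. The part of these differences in the results below was not tested. In bulk RNA, fewer cells of a type and less RNA per cell cannot be told apart.

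The 63 genes together took 0.166%, 0.165%, 0.175% and 0.126% of the counts of the 4 libraries. Mean levels per kilobase of exon ran from 0.110 to 47.1 CPM, with a median of 3.38. Zfp979, Zfp990, Zfp980, Zfp961 and Zfp985 were highest per length, and 4 of these 5 lie in the chromosome 4 cluster, which held 60.9% of the counts of all 63 genes.

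**Figure D1:**
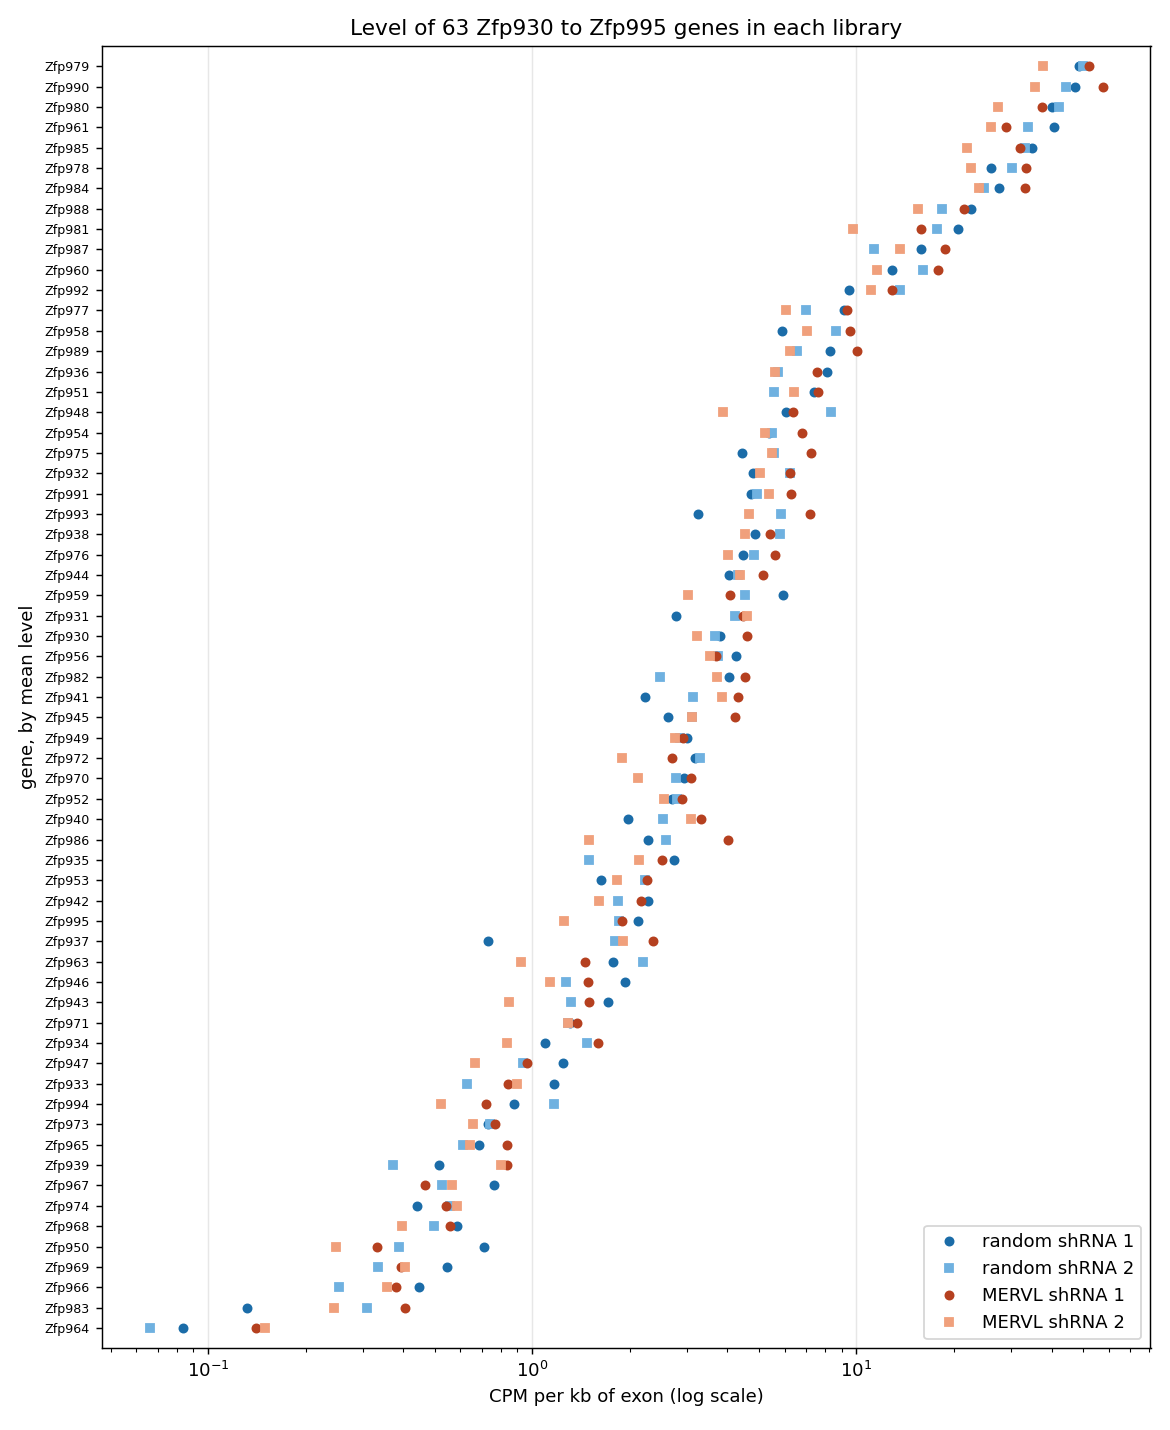
Level of each of the 63 genes in the 4 libraries, as CPM per kilobase of exon on a log axis, ordered by mean level; each point is 1 library. Levels run from 0.110 in Zfp964 to 47.1 in Zfp979 on average, and the libraries of a group often overlap those of the other.

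Zfp979 had 199.5, 205.5, 214.2 and 154.6 CPM. The highest and the lowest of these were both MERVL shRNA libraries, so the groups overlapped, and the log2 fold change was -0.13 (SE 0.19, adjusted p = 0.810, edgeR). Zfp990 had 164.6, 155.1, 201.3 and 124.0 CPM, with the same overlap and a log2 fold change of 0.03. Zfp980 had 160.8, 168.5, 149.5 and 109.8 CPM, and Zfp985 had 99.8, 95.3, 91.4 and 63.1 CPM. In these both MERVL shRNA libraries were below both random shRNA libraries, with log2 fold changes of -0.34 and -0.34 that did not pass the test (adjusted p = 0.467 and 0.517, edgeR). At the low end, Zfp969, Zfp964 and Zfp967 had mean estimated counts of 10.8, 12.2 and 14.8, at which depth only large differences could be seen.

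No gene of the 63 passed the test for the knockdown. The edgeR quasi-likelihood F test, with p-values adjusted over 16353 features by Benjamini-Hochberg, called 0 genes higher and 0 lower at an adjusted p of 0.05, against a background of 0.00612% higher and 0% lower over all features. At an unadjusted p under 0.05, Zfp941 and Zfp940 were higher and Zfp961 and Zfp981 lower, against 4.87% of all genes higher and 6.35% lower. DESeq2 called 0 of the 63 (7 of them had no adjusted p), against 0.515% of all genes higher and 0.764% lower, and limma-voom called 0, against 0%. Other scalings (RLE, upper quartile, library totals) called 0, against 0.00636% higher, and a filter of 1 CPM in 2 libraries called 0, against 0.00676% higher. The median log2 fold change was 0.03, against 0.00 over all 15735 fitted genes and 0.05 over 282 other fitted numbered Zfp genes. Values were positive for 32 genes and negative for 31, from -0.92 in Zfp950 to 0.93 in Zfp964. None of the 63 differed by more than 1 on the log2 scale, against 5.34% of all genes. The same test called 0 of the 618 fitted MERVL copies lower. It also called 0 of the 5 markers of the 2-cell-like state, which were lower in both MERVL shRNA libraries. Their log2 fold changes ran from -5.56 (Tcstv1) to -1.86 (Zscan4c), with adjusted p of 0.316 to 0.329 by edgeR. A count of 0 called therefore does not show that the 63 genes were unchanged.

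**Figure D2:**
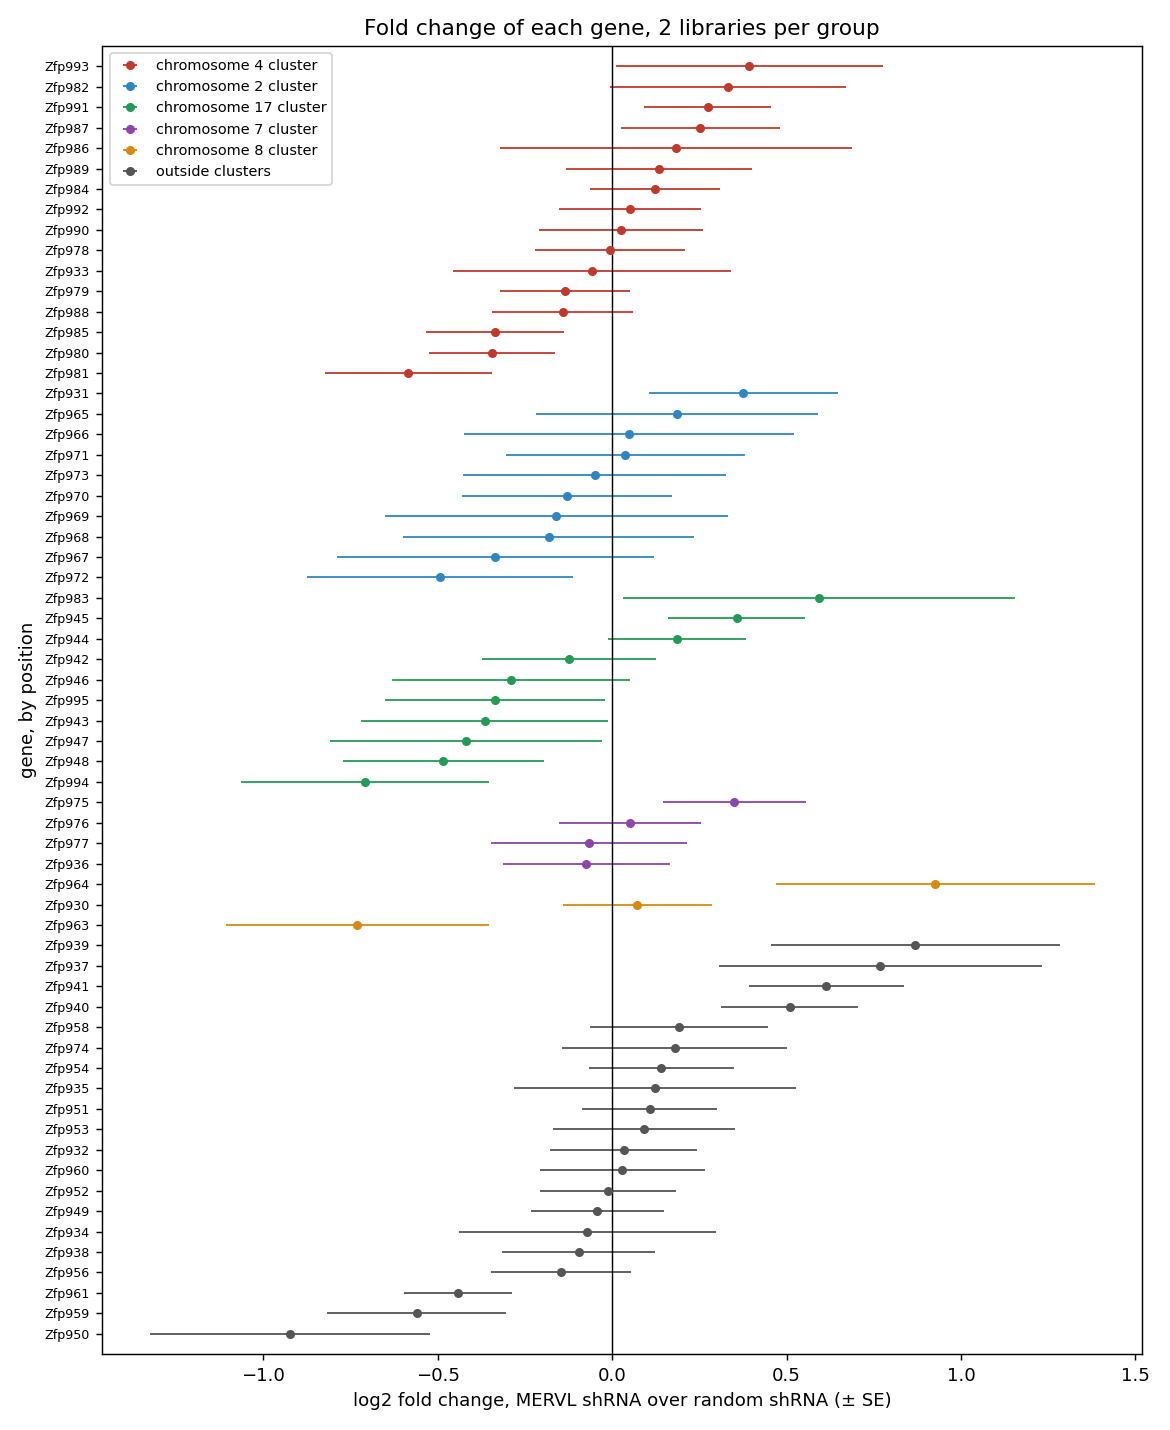
Log2 fold change of each gene, MERVL shRNA over random shRNA, with its standard error, grouped by position; n = 2 libraries per group. Values lie between -0.92 and 0.93, and none passed the adjusted threshold.

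Among the genes with the smallest p-values, those that were lower with MERVL shRNA were led by Zfp961 (ENSMUSG00000052446, chr8:71951038-71993792), which codes for a KRAB protein with 11 fingers and shares no 100-base window with another gene, although its estimated counts were not whole in any of the 4 libraries. It had 176.0, 147.0, 125.0 and 112.8 CPM, or 162 ± 20.5 in the random shRNA group and 119 ± 8.64 in the MERVL shRNA group (SD, n = 2 each). Both MERVL shRNA libraries were lower, with a log2 fold change of -0.44 (SE 0.15, adjusted p = 0.336, edgeR), the smallest adjusted p of the 63. Zfp981 (ENSMUSG00000056300, chr4:146502027-146539395) has the second run in its printed promoter window, which lies inside these positions and not at the gene start. It shares 12.6% of its 100-base windows, and its estimated counts were not whole in 3 libraries. It had 65.3, 56.02, 49.97 and 30.9 CPM. Its groups were apart as well, and its MERVL shRNA libraries differed from each other by more than the gap between the groups. In Zfp961 the random shRNA libraries likewise differed by more than the gap (0.260 against 0.234, log2). The log2 fold change of Zfp981 was -0.58 (SE 0.24, adjusted p = 0.366, edgeR).

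Zfp950 had 7.53, 4.11, 3.52 and 2.63 CPM, with random shRNA replicate 1 well above the rest (log2 fold change -0.92, SE 0.40). Zfp959 had 14.5, 11.1, 9.99 and 7.38 CPM (log2 fold change -0.56, SE 0.26). Both are KRAB zinc finger genes outside the clusters. Zfp994, of the chromosome 17 cluster, had 4.27, 5.70, 3.52 and 2.55 CPM (log2 fold change -0.71, SE 0.36). Zfp963, of the chromosome 8 cluster, had 4.08, 5.03, 3.33 and 2.13 CPM (log2 fold change -0.73, SE 0.38). In each of these 4 genes both MERVL shRNA libraries were the lowest, and none passed the test, with adjusted p between 0.382 and 0.456 by edgeR.

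Of the genes that were higher with MERVL shRNA, Zfp941 (ENSMUSG00000060314, chr7:140807449-140822178) had 10.5, 14.8, 20.3 and 18.2 CPM, or 12.6 ± 3.04 and 19.2 ± 1.51 (SD, n = 2 each). Both MERVL shRNA libraries were above both controls, with a log2 fold change of 0.61 (SE 0.22, adjusted p = 0.338, edgeR). Zfp940 (ENSMUSG00000050855, chr7:29833620-29853669) had 11.99, 15.4, 20.1 and 18.8 CPM and showed the same order (log2 fold change 0.51, SE 0.20, adjusted p = 0.350, edgeR). Each codes for a KRAB protein with 10 fingers. The pseudogene Zfp939 had 1.28, 0.922, 2.07 and 1.99 CPM, and Zfp964 had 0.638, 0.503, 1.07 and 1.14 CPM. These last were the only 2 of the 63, or 3.17%, in which the gap between the groups exceeded the spread within each pair, against 15.2% of all genes, and their log2 fold changes of 0.87 and 0.93 did not pass the test (adjusted p = 0.420 and 0.437, edgeR).

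Zfp932, which has been described as a repressor of ERVK endogenous retroviruses, had 15.7, 20.5, 20.4 and 16.5 CPM. The groups overlapped and the log2 fold change was 0.03 (SE 0.21, adjusted p = 0.962, edgeR).

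Over the 63 genes, both MERVL shRNA libraries were above both random shRNA libraries in 9, below both in 10, and overlapped them in 44. The groups were thus apart in 30.2% of these genes, against 44.8% of all genes (23% higher and 21.9% lower) and 46.8% of the other numbered Zfp genes.

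A difference was seen between the replicates of the MERVL shRNA group. On the log2(CPM + 1) scale, 57 of the 63 genes were higher in MERVL shRNA replicate 1 than in replicate 2, with a median difference of 0.35. Over all genes 48.4% were higher in replicate 1, with a median of -0.01, and over the other numbered Zfp genes 67.7%, with a median of 0.06. In the random shRNA pair the 63 genes were divided, with 33 higher in replicate 1 and a median of 0.06. The median size of the difference, whatever its direction, was 0.347 in the MERVL shRNA pair for these genes against 0.123 for all genes, whereas in the random shRNA pair it was 0.283 for both. These counts are over genes that share sequence and position, and each pair is 1 comparison of 2 libraries, so no test is given.

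**Figure D3:**
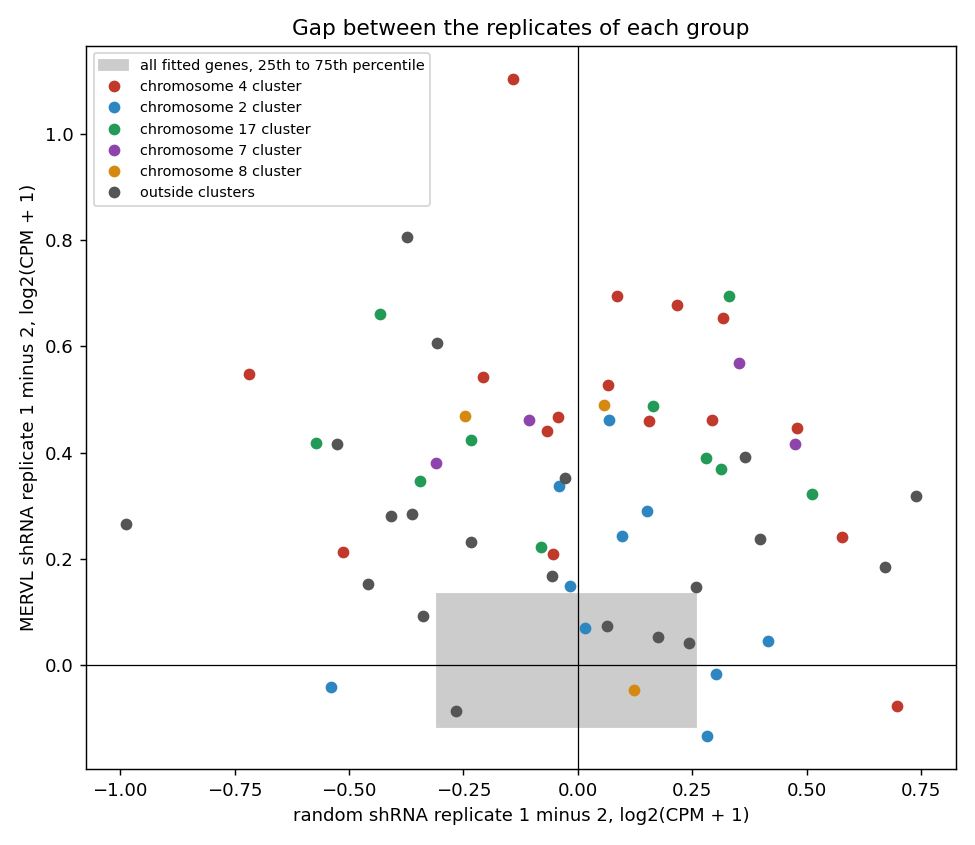
Difference between replicate 1 and replicate 2 on the log2(CPM + 1) scale, in the random shRNA pair (horizontal axis) and the MERVL shRNA pair (vertical axis); each point is 1 gene, coloured by position, and the grey box spans the 25th to 75th percentile of all fitted genes. Of the 63 points 57 lie above 0 on the vertical axis, while 33 lie to the right of 0 on the horizontal axis.

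The 6 exceptions were Zfp931, Zfp933, Zfp964, Zfp967, Zfp969 and Zfp974, named here after their values were seen. In the chromosome 4 cluster 15 of 16 genes were higher in MERVL shRNA replicate 1, with a median difference of 0.46. In the chromosome 17 cluster it was 10 of 10 (median 0.40), on chromosome 7 it was 4 of 4 (0.44), and on chromosome 8 it was 2 of 3 (0.47). The chromosome 2 cluster had 7 of 10 (0.11), and the genes outside clusters had 19 of 20 (0.23). Of the 35 genes that share 10% or less of their windows with another gene, 31 were higher in replicate 1. Counts were whole numbers in all 4 libraries for 15 of these 35 and in none for 5, and the part of divided reads in the replicate difference was not tested.

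Summed levels gave the same order. The chromosome 4 cluster had 1010, 986.4, 1088 and 764.5 CPM, so the random shRNA libraries lay close together and the MERVL shRNA libraries lay on either side of them. The chromosome 17 cluster had 96.1, 101.6, 111.8 and 80.1 CPM, and the chromosome 7 cluster 81.6, 77.7, 98.2 and 71.5 CPM. The chromosome 8 cluster had 24.6, 24.6, 28.4 and 20.1 CPM, and the chromosome 2 cluster 27.3, 28.6, 30.6 and 26.8 CPM. In all 5 clusters MERVL shRNA replicate 1 was the highest library and MERVL shRNA replicate 2 the lowest. The 20 genes outside them had 404.5, 394.4, 405.2 and 337.8 CPM. There MERVL shRNA replicate 2 was again the lowest, while MERVL shRNA replicate 1 and random shRNA replicate 1 were nearly equal, so their order depends on the scaling.

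**Figure D4:**
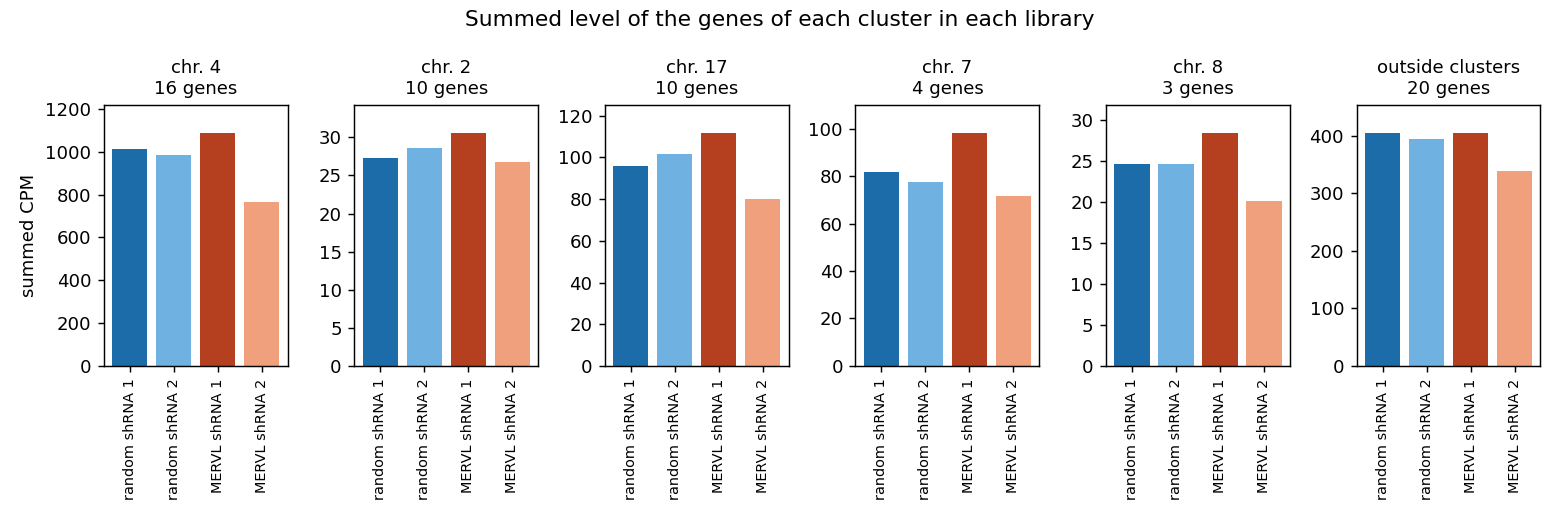
Summed CPM of the genes of each cluster, and of the 20 genes outside clusters, in each of the 4 libraries; each bar is 1 library and each panel has its own axis from 0. In every panel MERVL shRNA 2 is the lowest bar. MERVL shRNA 1 is the highest in each cluster, and outside clusters it is nearly equal to random shRNA 1.

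Other fitted genes within the same spans were higher in MERVL shRNA replicate 1 in 64 of 79 cases. Over whole chromosomes that share was 45.5% to 50.1%. Some of the 79 share sequence with the 63, so reads may be divided between them. Rex2 shares 39.4% of the windows of Zfp980, Znf41-ps 59.7% of those of Zfp991, and Gm13212 26.8% of those of Zfp984. The 79 are thus not independent of the 63, and the part of position was not tested. Transcripts of the 63 genes are poor in GC, with a median of 38.6% (33.2% to 53.9%) against 50.1% over all genes, and 57 of the 63 fell in the lowest of 5 equal groups of genes by GC, up to 44.1%. Of 3057 other genes in that group, 67.2% were higher in MERVL shRNA replicate 1, with a median of 0.08, against 51 of the 57 and a median of 0.38. In the remaining 4 groups the share of other genes was 39.9% to 49.2%. The share also varied with level and length. By mean CPM it fell from 58.3% in the lowest of 5 groups to 33.9% in the highest, where 6 of 6 of the zinc finger genes were higher in replicate 1. By exon length it ran from 41.7% in the second group to 59.0% in the longest. Apart from these values the part of GC content, level or length in the replicate difference was not tested.

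**Figure D5:**
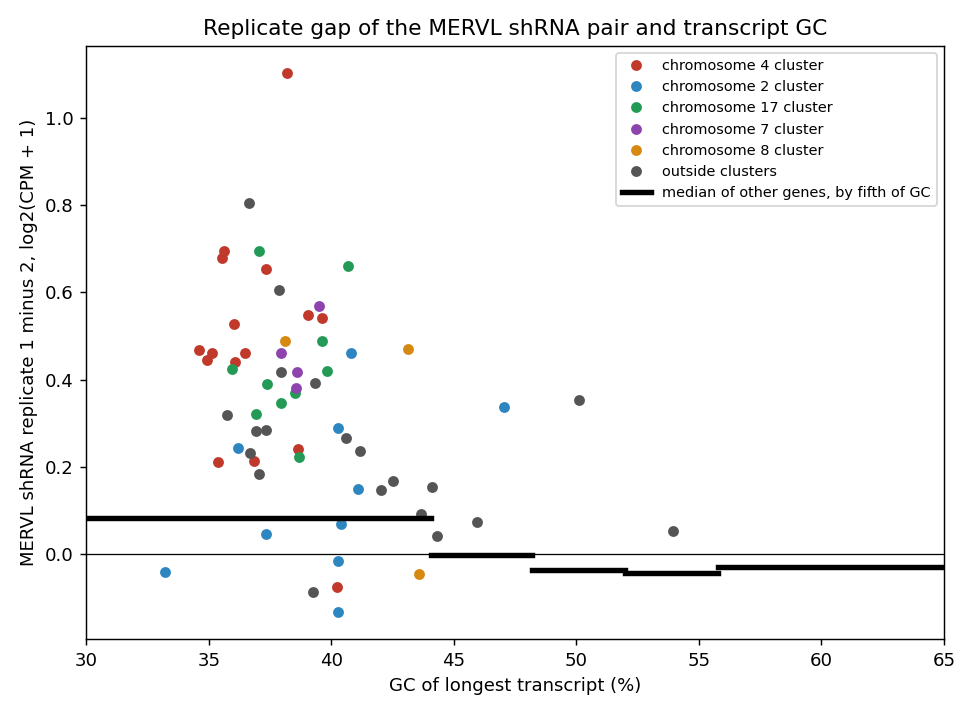
Difference between MERVL shRNA replicates 1 and 2 on the log2(CPM + 1) scale against the GC content of the longest transcript; points are the 63 genes, coloured by position, and black lines are the medians of all other genes in 5 equal groups by GC content. In the lowest group the other genes have a median of 0.08 and the 57 zinc finger genes a median of 0.38.

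The genes through which KRAB zinc finger proteins act were also examined, from a list of 18. All were fitted, 0 passed the adjusted threshold and 0 had an unadjusted p under 0.05, against 11.2% of all genes. The median log2 fold change was -0.05, against 0.00 over all genes, and the groups were apart in 3 higher and 4 lower, against 23% and 21.9% of all genes. Trim28, the corepressor bound by the KRAB domain, had 2636, 1575, 1606 and 1746 CPM, with random shRNA replicate 1 above the other 3 libraries and the groups overlapping. Setdb1, the methyltransferase, had 173.4, 116.0, 129.2 and 119.1 CPM, with the same library highest.

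Of 10 other zinc finger genes with published retroelement or imprint targets, 9 were fitted (Zfp92 was too low) and 0 were called. Zfp568, a repressor of a placental Igf2 transcript, had 198.8, 147.0, 85.9 and 85.1 CPM, with both MERVL shRNA libraries lower (log2 fold change -1.02, SE 0.18, adjusted p = 0.283, edgeR). Zfp809, which binds the primer binding site of murine leukaemia viruses, had 26.9, 17.1, 15.6 and 9.72 CPM (log2 fold change -0.80, SE 0.31). Zfp37 and Zfp459 had log2 fold changes of 0.71 and 0.75. These 4 had unadjusted p-values under 0.05, against 11.2% of all genes, and none passed the adjusted threshold. The other 5 fitted genes had log2 fold changes of 0.30 (Zfp57), 0.17 (Zfp708), 0.50 (Zfp819), 0.24 (Gm15446) and 0.28 (Zfp661), and the median of the 9 was 0.28, against 0.00 over all genes.

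The controls differ from each other, and the count of genes called depended on which was used. Without random shRNA replicate 1 the edgeR test called 1 of the 63 higher (Zfp987) and 4 lower (Zfp948, Zfp980, Zfp981 and Zfp994), against 7.03% and 7.32% of all genes. Without random shRNA replicate 2 it called 9 higher and 6 lower, against 15.6% and 13.7%. With no filter on low counts Zfp981 alone was called, lower, against 1.05% of all genes higher and 1.81% lower. On the scores the authors deposited, limma called 6 higher (Zfp931, Zfp937, Zfp939, Zfp940, Zfp941 and Zfp964) and 2 lower (Zfp950 and Zfp961), against 13.7% and 14.1% of all genes, and the groups were apart in 18 higher and 18 lower, against 36% and 37.7%. For Zfp980 the log2 fold change was -0.37 without random shRNA replicate 1 and -0.29 without random shRNA replicate 2, both by the edgeR test. Without MERVL shRNA replicate 1 or 2 it called 0, against 0.0122% and 0.012% higher. The order of the groups turned with the MERVL shRNA library kept. With replicate 2 alone, 36 of the 63 genes were below both controls and 12 above, against 29.3% and 33.8% of all genes, and with replicate 1 alone 34 were above and 11 below, against 33.3% and 28.4%. Without random shRNA replicate 1 the groups were apart in 18 higher and 14 lower, against 40.7% and 39.6%, and without random shRNA replicate 2 in 17 and 24, against 44.2% and 40.6%. With 1 control library left, that library is assumed to vary like the MERVL shRNA pair. For Zfp981 the log2 fold change was -0.46 (adjusted p = 0.00374) without random shRNA replicate 1 and -0.67 (adjusted p = 4.31e-07) without replicate 2, both by edgeR.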

How the data were processed

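Reads were handled with Trim Galore and HISAT2 on the mm10 build, per the submitters' processing notes. Their versions, the counter and its strand setting are not stated in the labels. Estimated counts per feature stand in 1 table that the authors deposited. A second deposited table holds normalized scores, made in a way that no label states. All columns were mapped to a sample by title.

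Estimated counts were rounded and tested with the edgeR 4.0.16 quasi-likelihood F test (R 4.3.3; TMM scaling, filterByExpr, no replicate term, 2-sided), which left 15735 genes and 618 MERVL copies, with Benjamini-Hochberg adjustment over all 16353. The F statistic gave the standard errors. The procedure was tested on simulated data. Alternatives used DESeq2 1.42.0, limma 3.58.1 (voom, and log2 of the deposited score + 1), other scalings and filters, a replicate block, and each library left out. Positions, transcripts, GC content and coding sequences came from GENCODE M21. C2H2 fingers (C, 2 residues, C, 12 residues, H, 3 or 4 residues, H) and a KRAB box pattern were counted in translations of GENCODE coding sequences, in place of RefSeq proteins. Genes named with full values were the 10 with the smallest p, the 5 highest per length, the 3 with the lowest mean count, Zfp932, and members of clusters described. The genes and lists were chosen with earlier results of these data known. Depth was 11628887 to 16067854 estimated counts per library, so genes with a mean count near 10.8 are imprecise.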

Additional observations from a re-analysis of the deposited data

How the results depend on the processing

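With 2 libraries per group, near-identical copies and controls that differ from each other, small differences could not be resolved. Large ones could fail the test as well, as did the 5 markers of the 2-cell-like state (log2 fold changes of -5.56 to -1.86, smallest adjusted p = 0.316, edgeR). The counts of called genes did not change under RLE, upper quartile or library-total scaling, a filter of 1 CPM in 2 libraries (61 of the 63 fitted), DESeq2 or limma-voom, although 7 of the 63 had no adjusted p in DESeq2. With no filter 1 gene was called lower (Zfp981), against 1.81% of all genes. With limma on the deposited scores 6 were called higher and 2 lower, against 13.7% and 14.1% of all genes, and the groups were apart in 18 higher and 18 lower, against 36% and 37.7%. Scores of the random shRNA libraries lay close together where their CPM differed. Zfp950 had scores of 76 and 82 in random shRNA 1 and 2, against 7.53 and 4.11 CPM. Zfp937 had scores of 50 and 46, against 2.04 and 5.03 CPM. The part of this in the calls was not tested.

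Leaving out each library in turn gave 0 to 9 genes called higher and 0 to 6 called lower, all from leaving out a random shRNA library. The median log2 fold change then ran from -0.15 (without MERVL shRNA replicate 1) to 0.17 (without MERVL shRNA replicate 2). The groups were apart in 12 to 34 genes higher, the most without MERVL shRNA replicate 2, and in 11 to 36 lower, the most without MERVL shRNA replicate 1. With fewer libraries, groups are apart more often by construction.

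Of the 17 named genes under 13 alternatives (219 values), 189 kept direction and side of the threshold, 18 passed the threshold and 12 changed sign. The 189 include the DESeq2 values of Zfp939, Zfp964, Zfp967 and Zfp969, which kept direction but had no adjusted p to place against the threshold. Zfp990 was -0.029 with library totals, -0.032 with the deposited scores, -0.017 with voom and -0.015 with the replicate block, and -0.34 to 0.35 with a library left out. Zfp932 was -0.024 with library totals, -0.012 with the deposited scores, and -0.14 to 0.25 with a library left out. Zfp979 was -0.36 to 0.10 and Zfp969 -0.43 to 0.26 with a library left out.

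What libraries with the same replicate number share is not in the labels. With the replicate block 0 of the 63 genes were called higher and 0 lower (smallest adjusted p = 0.0971, edgeR), against 0.699% and 1.6% of all genes, and the median log2 fold change was -0.01. The correlation of same-numbered deviations was 0.04 over 15735 genes and -0.12 over the 63.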
